A study of Mus musculus with 2 samples.

Results

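The genes examined were Nrgn, Penk, Adgrg1, Gldc, Slc16a11 and Rgs16, which are 6 of the 32285 genes in the deposited matrix. They were chosen by symbol because they had been seen in these same data to mark activated T cells of the tumours, so their levels between T cell groups are given as a description without a test. Single T cells came from melanoma tumours of C57BL/6J mice, 4 of which received the bacterium Lactobacillus reuteri (LR) and 4 PBS. Per the labels' protocols, tumour cells were enriched for the T cell surface protein CD90.2, tagged with 1 hashtag antibody per mouse, and sorted for 8000 live CD8+ cells from each animal, although another label calls the cells CD3+ T cells. Cells of a treatment were combined after sorting, and the 8 mice shared 1 lane of a droplet chip (Chromium 5′ v2 chemistry), so effects of handling the pools and of treatment cannot be told apart. The genotype given is the wild-type strain for all 8 mice; the tumour line, the dose and the timing were not given in the labels.

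In T cells of tumours, repeated stimulation through the antigen receptor raises inhibitory receptors such as Pdcd1 (encoding the receptor targeted by checkpoint antibodies) and Havcr2 (encoding TIM-3), while recent stimulation raises cytokine genes such as the chemokine gene Xcl1. Nrgn encodes neurogranin, a protein best known from neurons that binds calmodulin at low calcium. Penk encodes proenkephalin, the precursor of the enkephalin opioid peptides. Adgrg1 encodes GPR56, an adhesion G protein-coupled receptor known from cytotoxic lymphocytes, and Rgs16 encodes a protein that speeds the switching off of G protein alpha subunits. Gldc encodes glycine decarboxylase of the mitochondrial glycine cleavage system, and Slc16a11 a member of the monocarboxylate transporter family.

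All 6 are protein-coding genes in the GENCODE M21 annotation of GRCm38. Nrgn (ENSMUSG00000053310) lies on the minus strand at chr9:37544492-37552904, Penk (ENSMUSG00000045573) on the minus strand at chr4:4133531-4138819, Adgrg1 (ENSMUSG00000031785) on the plus strand at chr8:94974751-95014217, Gldc (ENSMUSG00000024827) on the minus strand at chr19:30098447-30175429, Slc16a11 (ENSMUSG00000040938) on the plus strand at chr11:70212752-70216417 and Rgs16 (ENSMUSG00000026475) on the plus strand at chr1:153740349-153745468. Slc16a11 has its family member Slc16a13 372 bases away. Nrgn, Adgrg1 and Slc16a11 overlap no other annotated gene. Penk, Gldc and Rgs16 each overlap 1 annotated gene on the opposite strand, of which the Rgs16 antisense gene Gm28513 had 32 UMIs (unique molecular identifiers; 1 counts 1 RNA molecule that was captured) and the Penk partner A830012C17Rik had 0.

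RefSeq start sites on GRCm38.p6 were available for 5 of the 6 genes, as windows of 250 bases before to 50 bases after the start; Adgrg1 has 2 such windows. They were searched on both strands for TGACGTCA and TGCGTCA (cyclic AMP response element and the proenkephalin element), TGANTCA (AP-1), GGAAAA (the NFAT core), AAAGGTCA (NR4A) and GCGTG (the core of the aryl hydrocarbon receptor site). The 4 windows with a match are shown because these genes were high in the same cells and differ in the letters at their starts. Matches are in capitals.
Slc16a11, plus strand, chr11:70213660-70213959: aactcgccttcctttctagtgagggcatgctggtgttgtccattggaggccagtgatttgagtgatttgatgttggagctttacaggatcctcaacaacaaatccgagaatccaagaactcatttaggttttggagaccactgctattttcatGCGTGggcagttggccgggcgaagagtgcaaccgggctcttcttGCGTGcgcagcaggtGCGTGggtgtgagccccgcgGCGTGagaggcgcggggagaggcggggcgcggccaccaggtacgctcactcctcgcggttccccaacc
Adgrg1, plus strand, chr8:94976859-94977158: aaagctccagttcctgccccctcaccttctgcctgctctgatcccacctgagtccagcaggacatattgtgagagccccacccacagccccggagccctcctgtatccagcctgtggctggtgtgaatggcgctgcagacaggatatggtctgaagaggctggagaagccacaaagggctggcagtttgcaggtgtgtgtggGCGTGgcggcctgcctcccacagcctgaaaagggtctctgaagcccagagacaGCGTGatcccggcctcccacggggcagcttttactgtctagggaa
Adgrg1, plus strand, chr8:94984149-94984448: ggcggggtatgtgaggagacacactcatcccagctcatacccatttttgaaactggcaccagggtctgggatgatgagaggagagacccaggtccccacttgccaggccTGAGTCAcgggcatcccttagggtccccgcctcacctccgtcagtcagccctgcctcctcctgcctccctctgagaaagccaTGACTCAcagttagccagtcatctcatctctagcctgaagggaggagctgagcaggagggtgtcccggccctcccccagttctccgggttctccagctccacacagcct
Rgs16, plus strand, chr1:153740103-153740402: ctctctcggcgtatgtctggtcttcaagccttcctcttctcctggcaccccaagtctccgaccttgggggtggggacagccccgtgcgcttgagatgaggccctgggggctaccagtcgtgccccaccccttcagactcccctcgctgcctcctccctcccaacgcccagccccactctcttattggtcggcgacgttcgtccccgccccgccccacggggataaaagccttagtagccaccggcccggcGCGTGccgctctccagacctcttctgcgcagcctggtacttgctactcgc
The Slc16a11 window holds GCGTG 4 times, a count that 1.33% of 32851 mouse promoter windows reach, against 32.4% with at least 1 match. The upstream Adgrg1 window holds GCGTG 2 times, and 11.1% of windows hold it at least as often. The downstream Adgrg1 window holds TGANTCA 2 times, a count that 0.46% of windows reach, against 7.81% with at least 1 match. Rgs16 has a single GCGTG at its start base. The windows of Nrgn and Gldc hold none of the 6 motifs. A match is only a run of letters and no binding was measured here; the cyclic AMP, proenkephalin, NFAT and NR4A letters, present in 1.79%, 2.12%, 23.4% and 1.51% of all windows, occur in none of the 6 windows of these genes. The RefSeq start of Slc16a11 and both of those of Adgrg1 lie inside the GENCODE genes, so the windows shown for these genes are not at the GENCODE 5′ ends.

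After filtering, 10406 cells were assigned to mice by hashtag, 479 to 2586 per mouse, with 2627575 to 9294975 UMIs per mouse and a median of 3272.5 UMIs per cell. CD8 T cells (at least 1 UMI of Cd8a or Cd8b1, Cd4 at 0) numbered 6030. Of these, 1833 had a Pdcd1 UMI (Pdcd1-positive) and 4197 had none (Pdcd1-negative). The Pdcd1-positive cells were divided into 183 Xcl1-high cells (3 or more Xcl1 UMIs, 10 to 34 per mouse), 782 Havcr2-positive cells and 868 others. Despite the CD8+ sort, 1285 CD4 T cells without Foxp3 and 489 Foxp3-positive T cells were present, and 2602 cells met no gate. Depth differed: the median was 3416 UMIs per Pdcd1-negative CD8 cell, 3946.5, 7124.5 and 10223 in the other Pdcd1-positive, Havcr2-positive and Xcl1-high cells, 2853 in CD4 and 4400 in Foxp3-positive cells. Since a gate needs a UMI of its gene, a deeper cell passes it more easily. The label of activated cells was checked on 9 activation genes (Tnfrsf9, Nr4a1, Nr4a2, Nr4a3, Egr1, Egr2, Irf4, Irf8 and Xcl1): their summed level was 417 CPM (UMIs per 1000000 UMIs of the same cells, mean of 8 mice) in Pdcd1-negative CD8 cells, 1186 in Havcr2-positive and 4228 in Xcl1-high cells, the last of which Xcl1 itself defines. The same sum was 724 in the other Pdcd1-positive CD8 cells, 545 in CD4 cells and 1321 in Foxp3-positive cells. A raised sum was therefore not particular to CD8 cells. Markers of other cell types were summed in Pdcd1-positive CD8 cells. Of the 7 neuron and glia markers 2 were detected, at a summed mean of 51.6 CPM (41.3 to 67.3 over the mice, against a mean of 93.1 in Pdcd1-negative CD8 cells), and Snap25, Stmn2 and Rbfox3 were among those at 0. Of 5 B cell markers 2 were detected, at 128 CPM (29.7 to 321, against 395 in Pdcd1-negative cells), with Cd79a and Ms4a1 at 0. The NK list had 4 of 5 detected at 122 CPM (79.3 to 159, against 112) with Ncr1 at 0, the myeloid list 4 of 6 at 14.2 CPM (6.61 to 22.3, against 65.1) with Csf1r and Adgre1 at 0, and the melanoma list 5 of 6 at 1.32 CPM (0.466 to 2.70, against 1.49) with Sox10 at 0. The part of such RNA in the levels was not tested.

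Levels below are CPM of the UMIs summed per mouse and gate, given as mean ± SD over 8 mice. In Pdcd1-positive CD8 cells, each of the 6 genes averaged 4.77 to 13.4 times its level in Pdcd1-negative CD8 cells of the same tumours. Nrgn, Adgrg1, Gldc, Slc16a11 and Rgs16 were higher in 8 of 8 mice and Penk in 7 of 8. For comparison, 24.1% of 10577 genes with at least 50 UMIs were higher in 8 of 8 mice. Because the genes were chosen for this pattern, nothing further is read from the count.

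**Figure D1:**
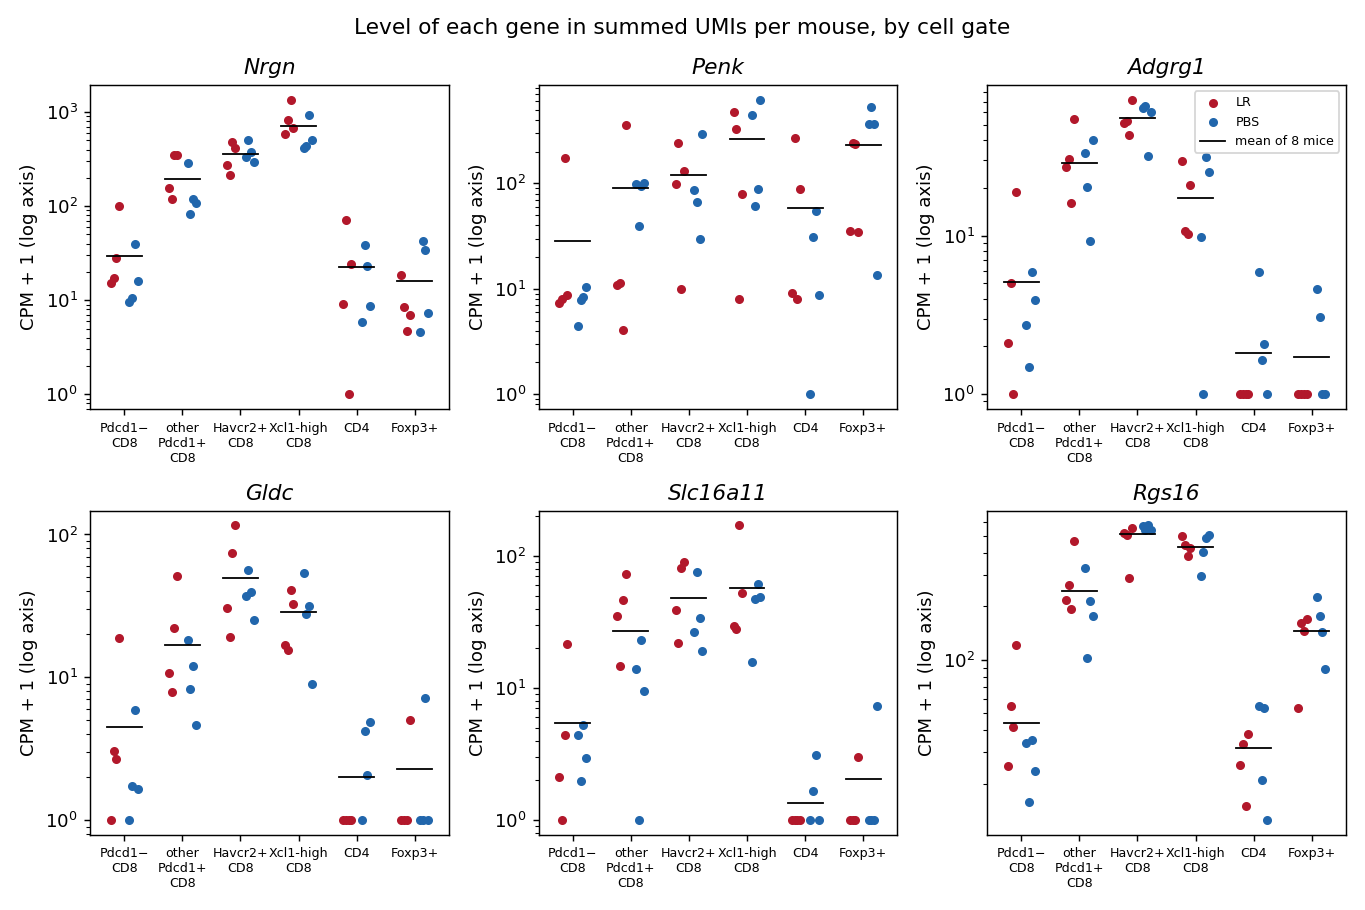
Level of each gene per mouse, as CPM + 1 on a log axis, in 6 gates of T cells; each point is 1 mouse (red LR, blue PBS) and the black line is the mean of 8 mice. Nrgn averages 28.4 CPM in Pdcd1-negative and 717 in Xcl1-high CD8 cells, Adgrg1 peaks at 54.1 in Havcr2-positive cells, and Penk alone reaches a mean above 200 in Foxp3-positive cells (228).

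Nrgn, the calmodulin-binding protein, was at 288, 303, 755 and 427 CPM in Pdcd1-positive CD8 cells of LR mice 1 to 4 and at 339, 293, 409 and 240 in PBS mice 6 to 9. In the Pdcd1-negative cells of the same mice it was at 14.1, 16.2, 27.1 and 98.8 CPM and at 8.61, 9.47, 38.3 and 14.9. The 2 gates did not overlap in any mouse or between mice, and LR mouse 4 had the highest Pdcd1-negative value. The means were 381.5 ± 163.4 and 28.4 ± 30.1, a ratio of 13.4. Within Pdcd1-positive cells Nrgn was highest in the Xcl1-high gate, at 717 ± 318 CPM against 361 ± 103 in Havcr2-positive and 196 ± 114 in the other cells. It was higher in Xcl1-high than in Havcr2-positive cells in 7 of 8 mice, PBS mouse 7 being the exception (431 against 510 CPM from 10 and 25 cells). Of 8906 genes, 5.63% were higher in 8 of 8, a stricter count that Nrgn did not meet. The share of genes higher in at least 7 mice was not computed. A Nrgn UMI was present in 76.5% of Xcl1-high cells (95% Clopper-Pearson interval 69.7 to 82.4%), 61.1% of Havcr2-positive cells and 4.65% of Pdcd1-negative cells. Cells with at least 2000 UMIs were also thinned to 2000, which left out 3 Xcl1-high, 30 Havcr2-positive and 784 Pdcd1-negative cells. In the thinned cells these shares were 49.4%, 35.2% and 2.90%. Ccr9 is a marker of naive cells, and Ccr9-positive Pdcd1-negative CD8 cells had a depth like that of other Pdcd1-negative cells (median 3457). They had a Nrgn UMI in 2.70% of 592 cells unthinned and in 1.15% of 523 thinned cells.

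Rgs16, the regulator of G protein signalling, varied least from mouse to mouse. In Pdcd1-positive CD8 cells it was at 407, 428, 294 and 518 CPM in LR mice 1 to 4 and at 426, 306, 435 and 377 in PBS mice 6 to 9, a mean of 398.9 ± 73.0. The Pdcd1-negative cells held 24.1, 53.5, 40.6 and 119 CPM in the LR mice and 32.7, 14.8, 34.0 and 22.6 in the PBS mice, a mean of 42.7 ± 33.2. Again no Pdcd1-negative value reached a Pdcd1-positive one. Rgs16 was at 508 ± 92.1 CPM in Havcr2-positive, 429 ± 69.5 in Xcl1-high and 243 ± 110 in the other Pdcd1-positive cells. Xcl1-high lay below Havcr2-positive cells in 7 of 8 mice, with LR mouse 3 the other way, and the gap between the means was close to the SDs. Unlike the other G protein-linked gene Adgrg1, Rgs16 also had 467 UMIs in Foxp3-positive T cells, at 144 ± 53.7 CPM, against 30.7 ± 16.2 in CD4 T cells without Foxp3. Foxp3-positive cells were above CD4 cells in 8 of 8 mice, as were 11.6% of 8674 genes.

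Adgrg1, the adhesion receptor, was at 37.8, 37.7, 23.1 and 62.2 CPM in Pdcd1-positive CD8 cells of LR mice 1 to 4 and at 40.8, 32.0, 23.4 and 45.7 in PBS mice 6 to 9. Its Pdcd1-negative values were 1.11, 4.04, 0 and 18.0 CPM in the LR mice and 1.72, 0.486, 4.86 and 2.91 in the PBS mice. The gates did not overlap. Within the Pdcd1-positive cells its order differed from that of Nrgn: 54.1 ± 13.1 CPM in Havcr2-positive, 27.8 ± 14.2 in the other and 16.3 ± 10.9 in Xcl1-high cells. Xcl1-high was below Havcr2-positive in 8 of 8 mice, as were 6.93% of 8906 genes, and the gap between the 2 lower gates was within their SDs. The Xcl1-high values rest on 38 UMIs, from 0 in PBS mouse 7 to 9 in LR mouse 1. The shares of cells with an Adgrg1 UMI were 34.1% in Havcr2-positive and 14.8% in Xcl1-high cells, although the latter were deeper, and 11.0% and 5.56% after thinning. No UMI was found in 592 Ccr9-positive cells, which allows a share of cells with a UMI of up to 0.507% (3 of 592 cells) and sets no limit on cells that express the gene below detection, and CD4 and Foxp3-positive cells held 3 and 2 UMIs.

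Gldc, the glycine decarboxylase, was at 20.1, 14.4, 47.1 and 92.4 CPM in Pdcd1-positive CD8 cells of LR mice 1 to 4 and at 34.0, 27.4, 27.9 and 13.1 in PBS mice 6 to 9. The Pdcd1-negative cells held 0, 2.02, 1.69 and 18.0 CPM in the LR mice and 0, 0.728, 4.86 and 0.646 in the PBS mice, so LR mouse 4 was highest in both gates. Its Pdcd1-negative value lay above the Pdcd1-positive values of LR mouse 2 and PBS mouse 9. Havcr2-positive cells had 48.7 ± 32.0 CPM, Xcl1-high 27.4 ± 14.7 and the other cells 15.9 ± 14.9. Xcl1-high was below Havcr2-positive in 7 of 8 mice, with PBS mouse 6 the exception. Havcr2-positive was above the other Pdcd1-positive cells in 8 of 8, as were Nrgn, Adgrg1, Slc16a11 and Rgs16, where 5.86% of 9282 genes were. Of its 570 UMIs, LR mouse 4 held 248 in its Pdcd1-positive CD8 cells alone.

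Slc16a11, the transporter family member, was at 34.9, 20.02, 102.4 and 81.9 CPM in Pdcd1-positive CD8 cells of LR mice 1 to 4 and at 19.0, 34.3, 35.1 and 17.9 in PBS mice 6 to 9. LR mice 3 and 4 stood above all other mice, and LR mouse 2 lay among the PBS mice. Pdcd1-negative cells held 1.11, 0, 3.38 and 20.5 CPM in the LR mice and 3.44, 0.971, 4.25 and 1.94 in the PBS mice. The Pdcd1-negative value of LR mouse 4 lay above the Pdcd1-positive values of LR mouse 2 and PBS mice 6 and 9. The Xcl1-high and Havcr2-positive gates were at 55.8 ± 48.5 and 47.4 ± 29.1 CPM, with 4 mice each way, so they did not differ beyond their spread. Foxp3-positive cells held 2 UMIs, CD4 cells 3 and the Ccr9-positive cells 0 of 592 cells.

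Penk, the opioid precursor, was on average higher in Foxp3-positive T cells than in Pdcd1-positive CD8 cells. It was at 135, 195, 6.61 and 175 CPM in Pdcd1-positive CD8 cells of LR mice 1 to 4 and at 172, 51.4, 62.1 and 253 in PBS mice 6 to 9. In Pdcd1-negative cells it was at 6.29, 7.07, 172 and 7.70 CPM in the LR mice and at 3.44, 6.80, 7.29 and 9.36 in the PBS mice. LR mouse 3 was reversed in both gates: 97 of its 102 Pdcd1-negative UMIs came from 1 cell, and its 139 Pdcd1-positive cells held only 8. In Foxp3-positive T cells Penk was at 34.7, 240, 235 and 33.9 CPM in the LR mice and at 368, 533, 367 and 12.5 in the PBS mice, a mean of 228 ± 190. This was above the Pdcd1-positive CD8 mean of 131 ± 83.9 in 5 of 8 mice, where the other 5 genes were all higher in the CD8 cells in 8 of 8 mice, as were 7.06% of 9925 genes. Of the 783 Penk UMIs in Foxp3-positive cells, 118 came from 1 cell of LR mouse 2, and LR mouse 1 had only 14 Foxp3-positive cells. Among Foxp3-positive cells, those with a Pdcd1 UMI were at 327 ± 377 and those without at 91.2 ± 92.8 CPM, the former higher in 6 of 8 mice. In CD4 T cells, 93 of the 99 Penk UMIs of LR mouse 2 came from 1 cell, and the mean of 57.7 ± 90.0 CPM has an SD above it.

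At full depth Penk had the largest share of its UMIs in few cells. At equal depth too few UMIs of Gldc, Slc16a11 and Adgrg1 were left to rank them against Penk. Its 3625 UMIs fell in 454 of 10406 cells, and the 105 cells with most of them (the top 1% of cells) held 84.6%. The 126 cells with 5 or more Penk UMIs held 87.6%, and 1 cell of LR mouse 4 held 168. The corresponding top-1% shares were 64.0% for Slc16a11, 61.8% for Gldc, 43.1% for Adgrg1, 42.4% for Nrgn and 26.1% for Rgs16. These shares are not on 1 footing, because a gene with few UMIs fills few cells: Gldc, Adgrg1 and Slc16a11 have 570 to 650 UMIs in all. Thinning to 2000 UMIs kept the 8077 cells with at least that many and left out 2329. The top 1% of the thinned cells (81 cells) held 83.3% of the UMIs of Gldc, 76.9% of Penk and 75.0% of Slc16a11. Thinning left 126 UMIs of Gldc in 102 cells, 144 of Slc16a11 in 117 and 158 of Adgrg1 in 147, against 774 of Penk in 244. For Gldc, Slc16a11 and Adgrg1 the 81 cells are most of those with a UMI. Their thinned shares are therefore high by count and give no ranking against Penk. Nrgn kept 1183 UMIs in 667 cells and Rgs16 1907 in 1060. The top-1% shares of Nrgn and Rgs16 were then 33.9% and 22.8%, below that of Penk, though their larger totals were not matched to its total. In cells with a UMI the mean count was 7.99 for Penk, 4.59 for Nrgn, 3.81 for Rgs16, 2.09 for Slc16a11, 1.84 for Gldc and 1.38 for Adgrg1, whose highest cell held 5.

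**Figure D2:**
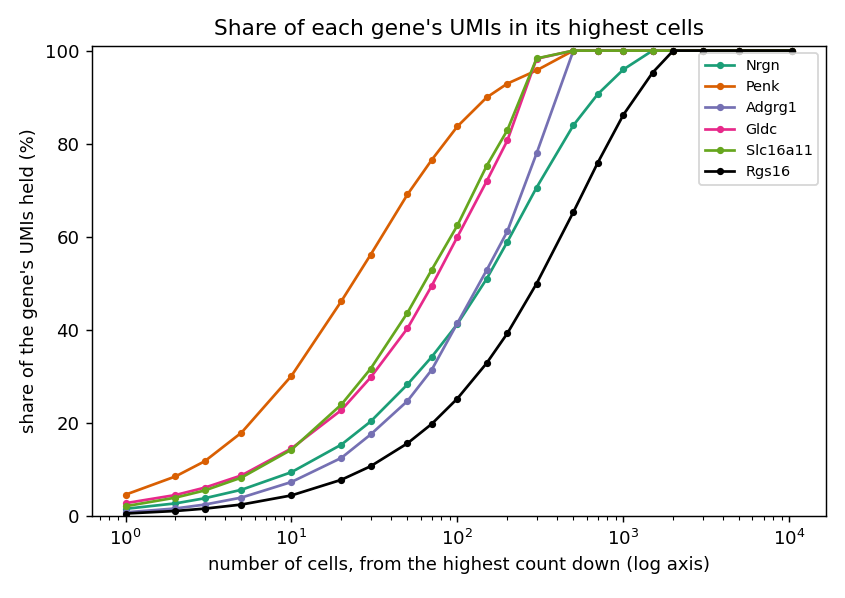
Share of each gene's UMIs held by its highest cells, against the number of those cells on a log axis, over 10406 cells. At full depth the Penk curve lies highest from 1 cell (4.63%) through 100 cells (83.7%), and the Rgs16 curve lies lowest (25.3% in 100 cells).

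The top 105 cells of each gene were mostly Pdcd1-positive CD8 cells, with differing gates. For Nrgn, 49 were Xcl1-high, 35 Havcr2-positive and 12 other Pdcd1-positive CD8 cells. For Adgrg1, Gldc, Slc16a11 and Rgs16 the Havcr2-positive gate led, with 74, 77, 53 and 69 cells against 7, 13, 25 and 23 Xcl1-high cells. For Penk, 34 were Havcr2-positive CD8, 22 Xcl1-high, 20 Foxp3-positive, 7 CD4 and 14 in no gate. Of the top cells, 56 for Gldc and 44 for Slc16a11 came from LR mouse 4, and 24 for Penk from PBS mouse 9. The median depth of these top cells was 7433 UMIs for Adgrg1 and 14805 for Nrgn, so depth moved with being a top cell and its part was not tested.

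Joint detection in single Pdcd1-positive CD8 cells was set against the product of the shares per mouse. All 15 pairs of the 6 genes lay above the product, by 1.24 to 2.14 times. Deeper cells hold more of every gene, and 97.7% of 14968656 pairs of genes found in as many of these cells (199 to 1108; a comparison added after the values were seen) also lay above it, with a median ratio of 1.25, so nothing is read from this count. Cells were therefore thinned to 2000 UMIs, which left 1684. The 15 ratios were then 1.02 to 2.21, where 51.3% of 10412766 gene pairs lay above the product (median ratio 1.01) and 0.384% did so in 8 of 8 mice. These pairs join genes found in 86 to 703 cells, and pairs of rare genes can hardly reach 8 of 8. The 0.384% is thus no matched share for commoner pairs. The 6 genes were also chosen in these data as marking the same cells, which itself favours pairs above the product, so the values are given as a description. Nrgn with Slc16a11 (56 cells against 30.3), Nrgn with Rgs16 (267 against 206) and Adgrg1 with Rgs16 (84 against 56.9) were above the product in 8 of 8 mice. Slc16a11 with Rgs16 and Nrgn with Adgrg1 were above it in 7 of 8. The pairs with Penk were less even: 36 cells against 28.1 with Nrgn and 8 against 5.00 with Slc16a11 (4 of 8 mice each), 14 against 9.33 with Adgrg1 (3 of 8), and 11 against 4.99 with Gldc and 60 against 45.1 with Rgs16 (6 of 8 each). Gldc was above the product with Slc16a11 (14 against 6.74), Nrgn, Adgrg1 and Rgs16 in 5 of 8 mice each, and Adgrg1 with Slc16a11 (8 against 7.86) in 4 of 8. All 6 genes had a UMI in 3 Havcr2-positive, 1 Xcl1-high and 1 Pdcd1-negative CD8 cell.

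In some mice, cells with much Penk carried 1 T cell receptor beta V segment more often than cells without Penk. The segment was taken as the Trbv gene with most UMIs in a cell; closely related segments such as those of the Trbv13 group can share reads. Among Pdcd1-positive CD8 cells of PBS mouse 9 with 5 or more Penk UMIs, 24 of 28 carried Trbv16 (85.7%), against 85 of 235 cells without Penk (36.2%). In LR mouse 2, 6 of 8 carried Trbv13-3 against 17.9% of Penk-free cells, in PBS mouse 6 it was 6 of 10 against 21.4%, and in LR mouse 1, 3 of 6 carried Trbv3 against 6.02%. LR mouse 4 was more mixed, with 3 of 15 in its commonest segment, Trbv13-1. PBS mice 7 and 8 had 4 such cells each, of which no segment was carried by more than 1, and LR mouse 3 had no such cells. The segment was picked in each mouse as the commonest among the Penk-high cells, so it is high there by choice. Cells with 1 segment may belong to 1 or several clones, since alpha chains and junctions were not used.

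**Figure D3:**
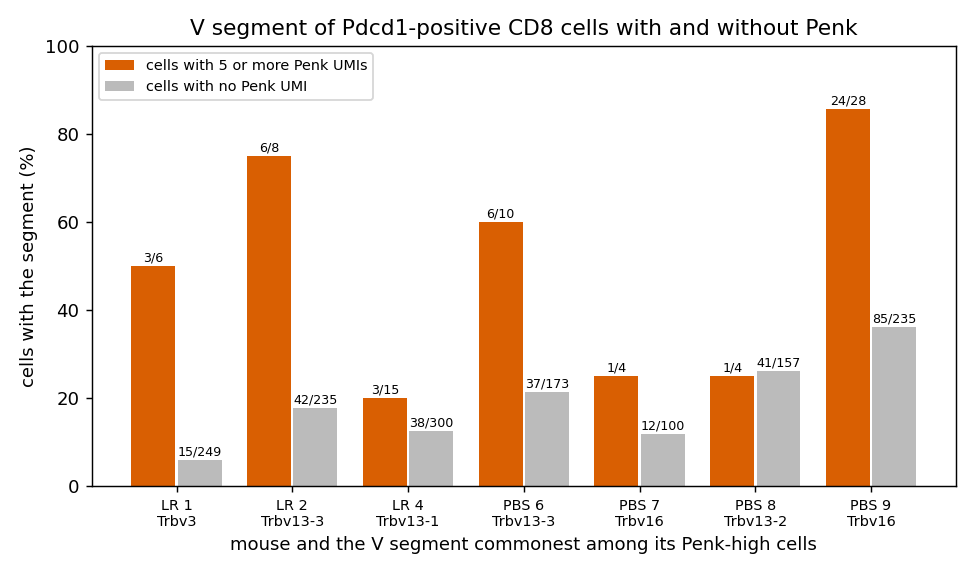
Percent of Pdcd1-positive CD8 cells that carried the named V segment, among cells with 5 or more Penk UMIs (orange) and with none (grey), in the 7 mice that had Penk-high cells; fractions above the bars are cells with the segment over all cells of that kind. In PBS mouse 9 the bars stand at 85.7% and 36.2%, while PBS mouse 8 shows no such gap (25.0% and 26.1%).

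The commonest V segment among all Pdcd1-positive CD8 cells of a mouse (Trbv19 in 4 mice, Trbv16 in 2, Trbv2 and Trbv13-2 in 1 each) took 13.0 to 45.2% of them. Cells with that segment had more Rgs16 than the others in 8 of 8 mice (527 ± 77.3 against 328 ± 81.9 CPM) and more Adgrg1 in 8 of 8 (50.6 ± 16.8 against 29.6 ± 12.5). Of 9554 genes, 0.712% were higher in 8 of 8. For Adgrg1 the gap in PBS mouse 8 was slight (23.8 against 23.5 CPM), and PBS mouse 7 had only 15 cells with its commonest segment. Nrgn, Penk, Gldc and Slc16a11 did not follow: they were higher in 2, 2, 3 and 3 mice. The cells with the commonest segment were also more often in the Havcr2-positive gate, 58.8% against 34.8%, with a median of 6168 against 5227 UMIs. Within the Havcr2-positive gate alone, Rgs16 was higher in 7 of 8 mice (599 ± 125 against 427 ± 129 CPM). Adgrg1 was higher there in 6 of 8 (63.2 ± 22.0 against 44.5 ± 13.4), and the smallest group held 6 cells. The share of all genes higher in at least 6 or 7 mice was not computed, so nothing further is read from these counts.

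Cycling cells were examined because their depth is high. Pdcd1-positive CD8 cells with a Mki67 UMI, a gene of dividing cells, had a median of 9958 UMIs against 4752.5 without. Nrgn was higher in the Mki67-positive cells in 8 of 8 mice (448 ± 186 against 328 ± 132 CPM), as were 11.7% of 9576 genes, and Gldc in 7 of 8 (41.2 ± 26.8 against 30.4 ± 26.2). Adgrg1 was lower in 7 of 8 (25.0 ± 6.99 against 47.0 ± 18.6). Of the 9576 genes, 7.88% were lower in 8 of 8, a stricter count that Adgrg1 did not meet. Rgs16, Slc16a11 and Penk were higher in 3, 5 and 3 of 8 mice and differed by less than their spread. The gaps between the means of Nrgn and of Gldc were also smaller than their SDs over mice.

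Likeness was measured as Pearson's r over log2(CPM + 10) of 44 sums of a mouse and a gate, among 7897 genes with a mean of at least 10 CPM; sums of a mouse share its library and the r values are given as a description. Rgs16 was most like the inhibitory receptor gene Lag3 (0.945), then Txn1 (0.928) and Litaf (0.928). Nrgn was most like Gpd2 (0.916), which encodes mitochondrial glycerol-3-phosphate dehydrogenase, then Nr4a2 (0.906), a nuclear receptor induced by stimulation, and Slc16a11 (0.893). Gldc and Slc16a11 were each other's most similar gene (0.898). Gldc was followed by the perforin gene Prf1 (0.889) and Gpd2 (0.868), and Slc16a11 by Nrgn and the granzyme inhibitor gene Serpinb9 (0.875). Adgrg1 was most like Sh2d2a (0.899), Trgv2 (0.888) and Serpine2 (0.881). Penk reached only 0.696 with any gene, with Xbp1, and then Cfdp1 (0.683) and Bcl2l1 (0.681). Its r with the other members was 0.512 for Rgs16, 0.288 for Nrgn, 0.222 for Adgrg1, 0.123 for Gldc and 0.094 for Slc16a11.

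Each gene was set among a list of genes that share its pathway, compared between Pdcd1-positive and Pdcd1-negative CD8 cells. The 20 other genes of glycine cleavage, serine synthesis and one-carbon metabolism included 15 with at least 50 UMIs, of which 10 were higher in 8 of 8 mice and 0 lower (24.1% and 14.2% over all genes), with a median log2 ratio of 1.17 against 0.10 over all 10577 genes. Phgdh, the first enzyme of serine synthesis, was at 177 ± 28.1 against 76.1 ± 14.9 CPM. Tyms, thymidylate synthase of DNA synthesis, was at 98.0 ± 21.9 against 26.8 ± 16.7, and Slc1a5, a transporter of neutral amino acids, at 155 ± 20.7 against 131 ± 20.1. Gcsh, the carrier protein of the glycine cleavage system, was at 28.0 ± 4.26 against 12.3 ± 4.79 CPM, while Amt, its aminomethyltransferase, had 1 UMI in all cells; both were named after their values were seen. The summed level of 5 cycling genes was 769 CPM in Pdcd1-positive and 209 in Pdcd1-negative CD8 cells and moved with this list; its part was not tested.

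**Figure D4:**
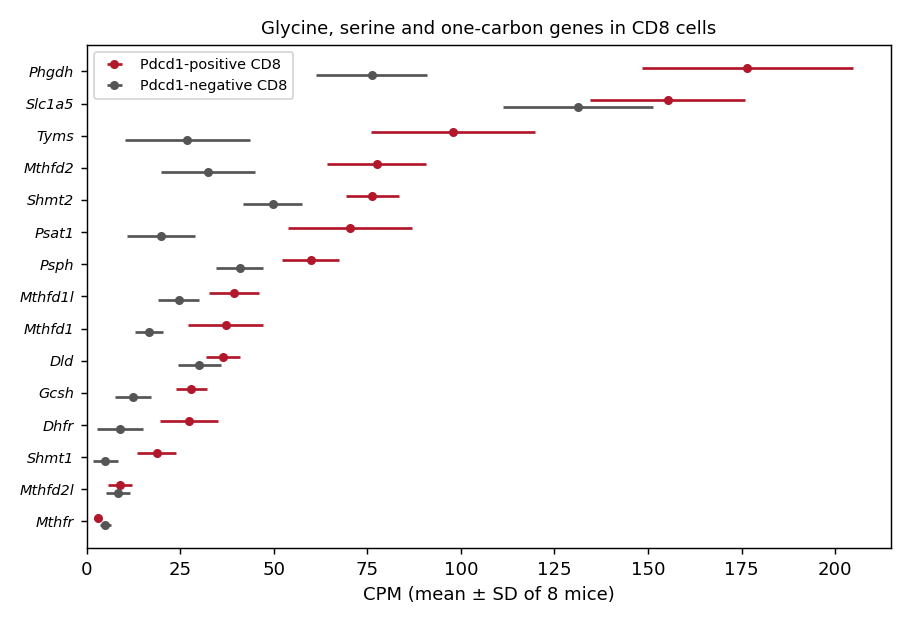
Mean CPM ± SD over 8 mice of the 15 genes of the glycine, serine and one-carbon list with at least 50 UMIs, in Pdcd1-positive (red) and Pdcd1-negative (grey) CD8 cells. Phgdh (177 against 76.1) and Tyms (98.0 against 26.8) are among the 10 genes higher in every mouse, while Slc1a5 overlaps.

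The other lists were mixed and are read against the 24.1% of all genes that were higher and 14.2% that were lower in 8 of 8 mice, and the median log2 ratio of 0.10. In the list of monocarboxylate transport and lactate, 5 of 12 measured genes were higher and 2 lower in 8 of 8 mice: lactate dehydrogenase Ldha was at 1580 ± 262 against 712 ± 117 CPM and the transporter chaperone Bsg at 339 ± 47.4 against 173 ± 27.6, while the second chaperone, Emb, was lower at 175 ± 56.7 against 593 ± 116; the median log2 ratio was 0.14. Slc16a13, the neighbour of Slc16a11, was at 6.76 ± 2.16 against 2.41 ± 1.28 CPM and was named after its values were seen. In the list of RGS proteins and G protein subunits, 4 of 11 were higher and 3 lower; Rgs1, an RGS gene of activated lymphocytes, was at 435 ± 97.4 against 179 ± 59.1, and the alpha subunits Gnai2 and Gnai3 at 920 ± 83.4 against 683 ± 61.1 and 106 ± 8.54 against 89.4 ± 6.88, with a median of 0.23 for the list. In the list of calmodulin and calcineurin, 4 of 16 were higher and 2 lower with a median of 0.09, near the share and median over all genes; Calm3 and Calm2, which encode calmodulin, were at 357 ± 61.2 and 215 ± 27.8 against 151 ± 36.0 and 168 ± 32.5. In the list of adhesion receptors and GPR56 partners, 3 of 11 were higher and 2 lower with a median of 0.07, also near those over all genes; Rhoa, a GTPase downstream of such receptors, was at 621 ± 40.4 against 524 ± 18.0, Adgre5, which encodes CD97, at 186 ± 32.3 against 178 ± 31.3, and the G protein gene Gna13 was lower at 91.3 ± 15.01 against 126 ± 21.2.

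The opioid list was the least detected. Of the 15 genes beside Penk, 2 had at least 50 UMIs in these cells, and 0 were higher or lower in 8 of 8 mice. The protease gene Furin was at 21.3 ± 6.64 against 27.1 ± 6.88 CPM, Pomc, the precursor of beta-endorphin, at 3.53 ± 1.65 against 3.08 ± 1.08, and the convertase gene Pcsk1 at 0.573 ± 0.584 against 0.903 ± 0.524. The opioid receptor genes Oprd1, Oprk1 and Oprl1 had 0 UMIs in 10406 cells and Oprm1 had 10, so expression of a receptor was not detectable at this depth for the first 3.

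LR and PBS mice were compared with edgeR's quasi-likelihood test on UMIs summed per mouse, over all genes that passed edgeR's expression filter, with Benjamini-Hochberg adjustment. All 6 genes passed the filter in CD8 T cells and in Pdcd1-positive and Havcr2-positive CD8 cells, Nrgn and Rgs16 passed in Pdcd1-negative CD8 cells, Penk and Rgs16 in Foxp3-positive cells, and 0 of the 6 in CD4 cells. None was called at an adjusted p of 0.05 or less in any of these gates. Over all genes, 0.0% of 9945 were called in CD8 T cells, 0.0114% of 8796 in Pdcd1-positive CD8 cells (1 gene, granzyme B or Gzmb), and 0.0% in Pdcd1-negative (8269 genes), Havcr2-positive (6994), CD4 (3651) and Foxp3-positive cells (6246). In the 5 gates without a call, 741, 416, 395, 165 and 228 genes had an unadjusted p under 0.05, and DESeq2 called 3, 0, 2, 0 and 1.

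Slc16a11 had the largest ratio of the 6 in all CD8 T cells, with a log2 ratio of LR over PBS of 1.84 ± 0.58 (standard error; edgeR adjusted p = 0.617). Its means were 41.5 ± 31.7 CPM in 4 LR and 11.5 ± 4.86 in 4 PBS mice, and the ranges overlapped. In Pdcd1-positive CD8 cells the log2 ratio was 1.20 ± 0.43 (edgeR adjusted p = 0.959), from 59.8 ± 38.8 against 26.6 ± 9.40 CPM. Gldc and Nrgn followed in CD8 T cells at 1.45 ± 0.73 and 1.00 ± 0.47, both with an edgeR adjusted p of 0.617, and Adgrg1, Rgs16 and Penk were at 0.77 ± 0.48, 0.61 ± 0.40 and 0.54 ± 0.57. The share of CD8 cells that were Pdcd1-positive moved the same way, at 26.0, 48.6, 47.6 and 60.5% in the LR mice and 52.6, 9.32, 25.1 and 25.9% in the PBS mice; its part in the CD8 ratios was not tested. Inside the Pdcd1-positive gate the ratios were 0.84 ± 0.50 for Gldc, 0.45 ± 0.26 for Nrgn, 0.19 ± 0.26 for Adgrg1, 0.09 ± 0.16 for Rgs16 and -0.08 ± 0.58 for Penk. Single mice carried much of several ratios: in Pdcd1-positive CD8 cells Gldc was at 0.02 without LR mouse 4 and Nrgn at 0.09 without LR mouse 3, and in CD8 T cells Gldc was at 0.44, Adgrg1 at 0.26 and Rgs16 at 0.33 without LR mouse 4. Leaving out each mouse gave 1.43 to 2.13 for Slc16a11 in CD8 T cells and 0.89 to 1.51 in Pdcd1-positive CD8 cells.

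**Figure D5:**
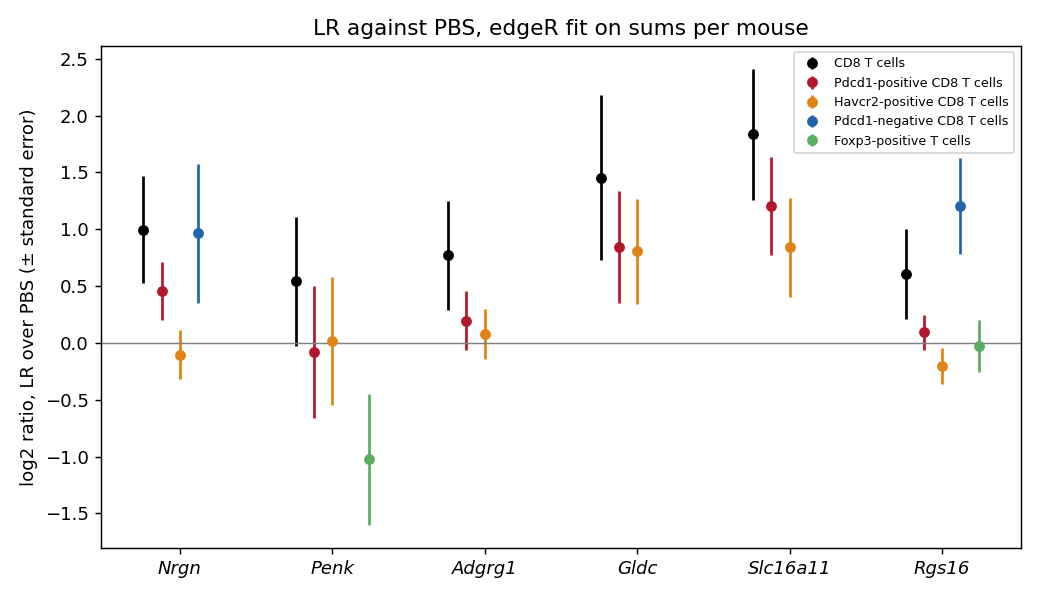
Log2 ratio of LR over PBS, with its standard error, for each gene in the gates where it passed the expression filter (edgeR, 4 against 4 mice, 3 against 4 in Foxp3-positive cells). Slc16a11 is highest in CD8 T cells (1.84 ± 0.58), and no gene passed the adjusted threshold.

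In Havcr2-positive CD8 cells Slc16a11 and Gldc were at log2 ratios of 0.84 ± 0.44 and 0.81 ± 0.46 (edgeR adjusted p = 0.863 for both; 0.34 and -0.03 without LR mouse 4), and the other 4 lay between -0.21 and 0.08. In Pdcd1-negative CD8 cells Rgs16 was at 1.20 ± 0.42 (edgeR adjusted p = 0.93), from 59.4 ± 41.8 against 26.0 ± 9.05 CPM, and Nrgn at 0.96 ± 0.61; LR mouse 4 was the highest LR mouse for both, and without it the Nrgn ratio was -0.03 and the Rgs16 ratio 0.63. In Foxp3-positive cells, with LR mouse 1 left out for its 14 cells, Penk was at -1.02 ± 0.58 (edgeR adjusted p = 1), from 170 ± 118 in 3 LR and 320 ± 219 CPM in 4 PBS mice, and Rgs16 at -0.03 ± 0.23; leaving out each mouse gave -1.48 to -0.53 for Penk. The Xcl1-high cells were too few in some mice for a fit: Nrgn was at 586, 823, 1357 and 679 CPM in LR mice 1 to 4 and at 416, 431, 937 and 506 in PBS mice 6 to 9, and these ranges overlap. Of the pathway list genes, 0 were called in any gate, with lowest adjusted p values of 0.617 in CD8 T cells and 0.856 in Pdcd1-positive CD8 cells. Mice of a treatment differed widely and the p-values cover only the spread between these 8 mice.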

How the data were processed

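The deposited matrix holds raw UMI counts for 32285 genes and 9 hashtags in 16969 barcodes, made by the authors with Cell Ranger 4.0.0 on GRCm38, per the submitters' processing notes; the annotation release is not given in the sources used here, nor is any other filter. Mice and treatments were read from the hashtag names alone, with LR read as the L. reuteri treatment of the labels. A barcode was kept when it held 500 genes or more and no more than 10% of its UMIs were mitochondrial (14474 barcodes). Hashtags were called by a Gaussian mixture on log counts; 2570 barcodes (17.8%) with 2 or more hashtags and 679 with none were left out, and 819 more that Scrublet marked (expected rate 0.1), leaving 10406 cells. Doublets within a mouse that Scrublet missed remain.

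Gates used UMIs of their genes as stated in the report; Foxp3-positive and CD4 cells had a Cd3d, Cd3e or Cd3g UMI and no Cd8a or Cd8b1 UMI. Counts were summed per mouse and gate and scaled to CPM, that is to a total of 1000000. LR was compared with PBS with edgeR 4.0.16 (TMM factors, filterByExpr, R 4.3.3), in mice with at least 20 cells of a gate; the script was tested on simulated data. DESeq2 1.42.0, library totals, no filter, other gate limits, kept Scrublet calls, thinning and leaving out each mouse were alternatives. The members, gene lists and gates were chosen with earlier results of these data known. Named genes were the 6 members, the gate genes, from each list the 3 non-members highest in Pdcd1-positive CD8 cells, any list gene past the adjusted threshold, and the 3 genes most like each member. Intervals are 95% Clopper-Pearson; intervals and the limit for 0 (3 counts) cover counting error only. Proteins and the Penk promoter were not used here.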

Additional observations from a re-analysis of the deposited data

Results flagged for a closer look

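For 4 independent values with a normal spread, the rule used marks about 5% of groups as holding an outlying mouse. Of 80 groups of a gene, a gate and a treatment, 12 were marked. The groups share cells, since the Pdcd1-positive CD8 gate contains other gates examined, and some hold 0 in all mice but 1. The 5% is therefore no matched share, and no excess over chance is read from the 12. Penk in Pdcd1-negative CD8 cells stood at 172 CPM in LR mouse 3 against 6.29 to 7.70 in the other LR mice, with 97 of 102 UMIs in 1 cell. Among the other Pdcd1-positive CD8 cells, Penk stood at 358 CPM in LR mouse 4 (168 of 215 UMIs in 1 cell) against 3.03 to 10.3, and at 38.4 in PBS mouse 7 against 93.9 to 99.5. LR mouse 4 was apart in Pdcd1-negative CD8 cells for 3 genes: Nrgn at 98.8 CPM against 14.1 to 27.1, Slc16a11 at 20.5 against 0 to 3.38, and Gldc at 18.0 against 0 to 2.02, with no cell above 16 UMIs of the gene. Gldc in the Pdcd1-negative CD8 cells of PBS mouse 8 was at 4.86 CPM against 0 to 0.728. Rgs16 in Havcr2-positive CD8 cells of LR mouse 3 was at 287 CPM against 505 to 549. In Foxp3-positive cells, single mice held the few UMIs of a gene: Gldc at 3.98 CPM in LR mouse 4 and 6.18 in PBS mouse 8, and Slc16a11 at 1.99 in LR mouse 4 and 6.25 in PBS mouse 9, from 1 to 3 UMIs and with 0 in the other mice of the group.

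Signal also lay outside the comparisons. The hashtag named for LR mouse 5 had 5699 UMIs but no barcodes with a stained level, and the labels give 4 mice per condition. Cells that met no gate held 438 UMIs of Penk (12.1% of its total), 301 of Nrgn, 467 of Rgs16, 27 of Gldc, 26 of Slc16a11 and 9 of Adgrg1.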

How the results depend on the processing

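Of 588 recomputed gate levels, 585 moved by less than 1 SD over mice; Rgs16 in Pdcd1-negative CD8 cells was at 79.4 CPM with a limit of 2 Pdcd1 UMIs, and as a mean over cells Rgs16 in Xcl1-high cells was at 522 and Adgrg1 in Havcr2-positive cells at 69.8. After thinning to 2000 UMIs the top-1% shares were 76.9% for Penk, 83.3% for Gldc, 75.0% for Slc16a11, 58.2% for Adgrg1, 33.9% for Nrgn and 22.8% for Rgs16. Gldc then stood above Penk, but so few of its UMIs were left that its share is high by count. No member was called in any of these fits with the expression filter. Without the filter edgeR called 23 genes in Pdcd1-positive CD8, 53 in Havcr2-positive CD8, 31 in CD4 and 40 in Foxp3-positive cells; these included Penk in CD4 cells (adjusted p = 1.44e-09, where 1 cell held 93 UMIs) and in Foxp3-positive cells (log2 ratio -1.004, adjusted p = 0.000236). DESeq2 called 3 genes in CD8, 3 in Pdcd1-positive, 2 in Havcr2-positive and 1 in Foxp3-positive cells, and keeping Scrublet calls gave 1 in Foxp3-positive cells. Leaving out each mouse gave 0 to 2 calls in Pdcd1-positive CD8 (0 without PBS mouse 8 or 9, 2 without LR mouse 1 or 3) and 0 to 1 in Havcr2-positive and Foxp3-positive cells.

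Small ratios changed sign. Penk in Havcr2-positive CD8 cells was at -0.00286 with library totals and -0.0798 with Scrublet calls kept, and Rgs16 in Foxp3-positive cells at 0.00856 with those kept. Leaving out each mouse gave log2 ratios in Pdcd1-positive CD8 cells of -0.32 to 0.42 for Penk, -0.12 to 0.35 for Adgrg1 and -0.0447 to 0.225 for Rgs16, in Pdcd1-negative CD8 cells of -0.0293 to 1.58 for Nrgn, in Foxp3-positive cells of -0.165 to 0.144 for Rgs16, and in Havcr2-positive CD8 cells of -0.257 to 0.0805 for Nrgn, -0.50 to 1.10 for Penk, -0.13 to 0.15 for Adgrg1 and -0.0262 to 1.13 for Gldc. The cause was not tested. No paired analysis was run, because mice were known only by their hashtag names (LR 1 to 4 and PBS 6 to 9). These names give no pairing between LR and PBS mice.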
